A study of Mus musculus with 2 samples.

Results

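The 10 genes described here encode small leucine-rich proteoglycans, a family of secreted matrix proteins. They are Bgn, Dcn, Aspn, Fmod, Lum, Prelp, Omd, Ogn, Epyc and Chad, chosen by gene symbol out of 19430 genes in the count tables, and all 10 were present and passed a filter that asked for detection in 0.3% of spots. Measured by Visium were 2 sections of a single paraffin block with the distal tibia fracture callus of 1 control and 1 Nf1Postn mouse. Both mice were 8-week-old females with pinned fractures, collected 10 days after injury and decalcified in 14% EDTA for 3 days. The control was Nf1[+/flox] without Postn-cre. The Nf1Postn mouse was Postn-cre;Nf1[flox/-], so that 1 Nf1 allele was null in all of its cells and Cre was driven by the Postn promoter, which is active in the periosteum and, after injury, more broadly in the callus. Both mice therefore carried a floxed Nf1 allele. The labels number the sections as biological replicates, but they are slices of the same calluses and were not counted as separate animals. No test between genotypes was possible with 1 mouse of each, and none was run. A unique molecular identifier (UMI) is 1 captured probe pair, a spot often covers more than 1 cell, and fewer cells of a type in a spot cannot be told apart from less RNA per cell.

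Small leucine-rich proteoglycans share a core of leucine-rich repeats that binds collagen, and most carry chondroitin, dermatan or keratan sulfate chains. They set the diameter and spacing of collagen fibrils in bone, cartilage and tendon, and several also bind growth factors such as TGF-beta. Class I holds Bgn (biglycan), Dcn (decorin) and Aspn (asporin). Class II holds Fmod (fibromodulin), Lum (lumican), Prelp (a basement membrane and cartilage anchor) and Omd (osteomodulin, of mineralized tissue). Class III holds Ogn (osteoglycin) and Epyc (epiphycan, of growth plate cartilage), and class IV holds Chad (chondroadherin), a cartilage protein that binds integrins and collagen and lacks the sulfated chains.

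Most of the genes lie in 3 genomic clusters of the family. By the mm39 coordinates of the tables, Dcn, Lum, Kera and Epyc lie within 203 kb of chromosome 10 (97315471 to 97518316). Ecm2, Aspn, Omd and Ogn lie within 120 kb of chromosome 13 (49658286 to 49777977), and Optc, Prelp and Fmod within 151 kb of chromosome 1 (133824937 to 133976015). No other gene of the tables lay inside these intervals. Bgn lies on chromosome X (72527208 to 72539539) and Chad on chromosome 11 (94455873 to 94459953). Promoter windows of 300 bases, from 250 before to 50 after the gene start, were found in RefSeq (build GRCm38.p6) for 8 of the 10 genes. Dcn and Lum had no entry. The 150 bases just before the start are printed for 5 genes, because the regional results described below turn on them. Over 41 regional sums, Fmod was closest to Prelp and then to Chad. With sections and genotypes pooled, Bgn had the widest regional span, and Ogn peaked where Chad was lowest. Capitals mark searched motifs.
Chad, chr11:94564897-94565046, plus strand: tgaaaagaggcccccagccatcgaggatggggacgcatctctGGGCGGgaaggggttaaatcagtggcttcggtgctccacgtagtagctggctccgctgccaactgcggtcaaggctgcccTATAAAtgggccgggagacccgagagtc
Fmod, chr1:134037104-134037253, plus strand: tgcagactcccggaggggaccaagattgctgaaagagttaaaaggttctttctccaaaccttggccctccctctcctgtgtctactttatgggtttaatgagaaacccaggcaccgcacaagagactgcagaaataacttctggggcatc
Prelp, chr1:133921402-133921551, minus strand: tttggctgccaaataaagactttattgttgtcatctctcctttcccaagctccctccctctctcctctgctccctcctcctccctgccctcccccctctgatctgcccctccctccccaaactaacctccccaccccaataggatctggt
Bgn, chrX:73483451-73483600, plus strand: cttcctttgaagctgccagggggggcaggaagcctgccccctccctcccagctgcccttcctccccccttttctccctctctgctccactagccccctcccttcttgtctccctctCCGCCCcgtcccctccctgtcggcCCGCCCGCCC
Ogn, chr13:49607865-49608014, plus strand: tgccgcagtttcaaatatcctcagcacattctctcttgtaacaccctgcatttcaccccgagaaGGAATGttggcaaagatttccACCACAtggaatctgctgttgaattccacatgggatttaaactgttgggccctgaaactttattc
Both strands were searched. The TATA box was searched as TATAAA. The GC box was searched as GGGCGG. The SOX core was searched as ACAAAG and also, as a second form, by the letters ACAATG. The RUNX core was searched as TGTGGT, the TEAD core by the letters GGAATG, and the AP-1 motif by the letters TGANTCA. In capitals are a GC box and a TATA box in Chad, 3 GC boxes in Bgn, of which the last 2 overlap, and a TEAD and a RUNX core in Ogn. The stretches of Fmod and Prelp held none of these letters. Over all 32851 RefSeq windows of 300 bases, 13.6% held the TATA box, 35.7% the GC box and 28.6% a SOX core. The RUNX core was in 16.8%, the TEAD core in 14.7% and the AP-1 motif in 7.81%. These shares are for the full windows and not for the 150 printed bases. In its full window Ogn also held the TATA box letters, at -229 and -227, outside the printed stretch. A match describes letters in a window and no binding.

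The libraries differed in depth. Control spots numbered 1700 in section 1 and 1778 in section 2, with medians of 7053 and 5718.5 UMIs, and Nf1Postn spots numbered 1341 and 1556, with medians of 2030 and 3239.75. The sections shared 2711 spot barcodes, all at the same grid position, as the array design fixes them. Nf1 itself was at 87.8 and 79.0 CPM (UMIs scaled to the same total) in control and 65.6 and 49.6 in Nf1Postn in sections 1 and 2, and whether its probes lie within the deleted part is not known from the sources used here, so these values do not check the labels. Cartilage (Acan, 1506 and 993 CPM in control) and bone (Bglap, 1768 and 2085 CPM in control) markers were present, as the tissue label says. Levels are read by separate probe pairs for each gene and were not compared between genes.

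In both sections 7 of the 10 genes were lower in the Nf1Postn callus than in the control callus, and none was higher in both. Among all genes past the filter, 29.9% were lower and 42.3% higher in both sections. No member was at least 2-fold lower in both sections, a threshold that 1.19% of all genes passed, or at least 2-fold higher in both, which 11.5% passed. The median log2 ratio of Nf1Postn to control over the 10 genes was -0.52 in section 1 and -0.89 in section 2, beside 0.23 and -0.0707 over all genes. Where values of the genotypes are said below not to overlap, the share of all genes for which this held was not computed. Intervals beside levels are exact Poisson and those beside ratios exact conditional binomial 95% intervals, and both cover counting error only.

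Among class I, Bgn was at 1728 CPM in control section 1, 1786 in control section 2, 1033 in Nf1Postn section 1 and 675 in Nf1Postn section 2. Both Nf1Postn values lay below both control values, with log2 ratios of Nf1Postn to control of -0.74 (-0.79 to -0.69) in section 1 and -1.40 (-1.45 to -1.36) in section 2. Dcn was at 442 and 550 CPM in control and at 495 and 422 in Nf1Postn, so that the genotypes overlapped. Its ratio changed sign between the sections, at 0.16 (0.0857 to 0.24) and -0.38 (-0.45 to -0.32). Aspn, which competes with decorin for collagen, was at 116 and 143 CPM in control and at 91.6 and 74.4 in Nf1Postn, without overlap.

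In class II, Prelp was at 479 and 409 CPM in control and at 240 and 228 in Nf1Postn. Its ratios of -1.0 (-1.10 to -0.89) and -0.84 (-0.93 to -0.76) were the closest between sections among the members, and Prelp and Bgn were the only 2 members at least 1.5-fold lower in both sections, which 4.80% of all genes were. Lum, which spaces collagen fibrils, was at 704 CPM in both control sections and at 497 and 353 in Nf1Postn. Fmod, a regulator of fibril growth and tendon matrix, was at 668 and 658 CPM in control and at 424 and 569 in Nf1Postn, with ratios of -0.66 (-0.74 to -0.58) and -0.21 (-0.27 to -0.15). Omd was low, at 14.3 and 17.6 CPM in control against 9.82 and 8.02 in Nf1Postn. For these 4 genes no Nf1Postn value reached a control value.

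Of the other classes, Ogn was at 300 and 340 CPM in control and at 243 and 173 in Nf1Postn, again without overlap. Chad moved in opposite directions in the 2 sections. It was at 322 CPM in control and 182 in Nf1Postn in section 1 (log2 ratio -0.83, -0.95 to -0.70), but at 295 in control and 363 in Nf1Postn in section 2 (0.30, 0.22 to 0.38). Epyc had 99 UMIs in all, at 1.92 and 3.30 CPM in control and 5.78 and 2.17 in Nf1Postn, and no direction was read from it.

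**Figure D1:**
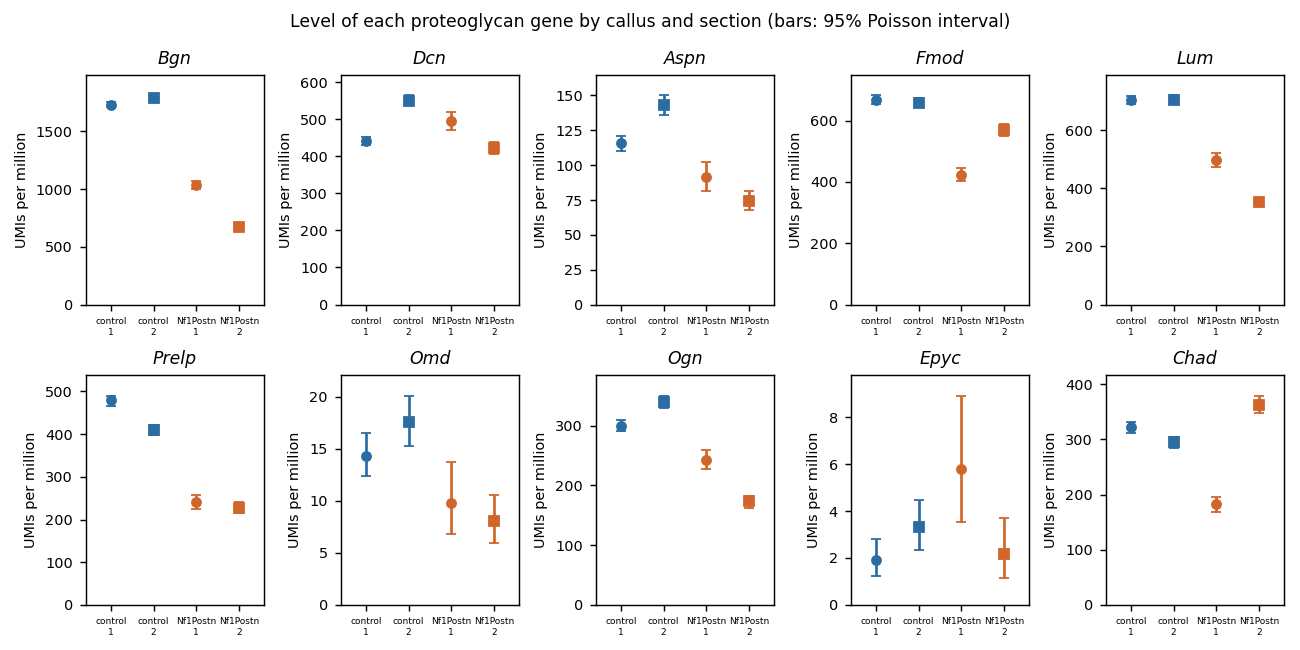
Level of each of the 10 genes in CPM (vertical axis, from 0) in control (blue) and Nf1Postn (orange) calluses, with circles for section 1, squares for section 2 and bars for the 95% Poisson interval. The Nf1Postn points of 7 genes lie below both control points, whereas those of Dcn, Epyc and Chad do not. The share of all genes with such a gap was not computed.

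These whole-callus values moved with the tissue in the spots. Clustering of spots gave 15 regions, which are called by number and by their leading genes. Left out of it were the members, other family genes and the listed collagens, enzymes, proteases, receptors and ligands. Cell type marker genes were kept in, so marker values by region are not independent of how the regions were built. In 7 regions muscle, regenerating muscle or erythroid genes were the marker list furthest above other spots, and these held 17.9% and 14.4% of control spots but 84.7% and 79.6% of Nf1Postn spots in sections 1 and 2. With these regions left out, the median log2 ratio over the members was 0.000726, 4 members rather than 7 were lower in both sections, and the pooled ratio was -0.30 for Bgn, -0.42 for Prelp, 0.36 for Dcn and 0.87 for Chad. The regions left out included region 3. The study called its 50 labelled spots, all control, progenitor (29) or distal cortical bone (21). Region 3 held 19.1% and 10.6% of Nf1Postn UMIs but 2.04% and 2.39% of control UMIs in sections 1 and 2. What part the tissue makeup had in the whole-callus ratios was not tested beyond these values.

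Over the 13 regions with at least 20 spots in each section, the members fell into different regional patterns. Region 2, led by the slow myosin gene Myh7 and by Tuba8, was the lowest for Bgn, Dcn, Aspn, Lum, Prelp and Ogn. With sections and genotypes pooled, Bgn ranged from 193 CPM there to 2517 in region 15, a 13.1-fold span. Fmod, with 2.84-fold, had the narrowest pooled span, although in section 1 alone it ran from 181 to 1015 CPM. Region 2 held 94 and 17 control and 65 and 559 Nf1Postn spots in sections 1 and 2. Region 15 held 94 and 30 control and 0 and 1 Nf1Postn spots. In section 1 control spots, Bgn was at 346 and 2521 CPM in regions 2 and 15, and Chad at 62.4 and 1024 in regions 2 and 7. Spans within 1 genotype were not computed. The top of the range differed by gene. Values by region are a description, as regions were built from the same spots. Region borders also moved at resolutions 0.3 and 1.0 and with all genes kept. Spots shared with the matching region, as a share of the spots of either, were 0.332 to 0.415 for region 4. This share was 0.458 to 0.644 for region 12, 0.403 to 0.968 for region 15, 0.531 to 0.958 for region 7 and 0.711 to 0.958 for region 11.

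Aspn and Ogn peaked in region 12, led by the macrophage gene Gpnmb, Il1rn and the fibroblast gene Lrrc15, whose spots carrying the study's own labels were mostly ossifying perichondrium (117 of 124). Aspn was at 261 and 236 CPM there in sections 1 and 2, and its next region, at 217 and 169, did not overlap. Ogn was at 643 and 509 CPM in region 12, above its next region in both sections. Bgn was also high in region 12, at 2416 and 2361 CPM. Lum and Omd instead peaked in region 4, led by Ucma and Scrg1, where Lum was at 897 and 940 CPM and did not overlap its next region. The labelled spots of region 4 were likewise mostly ossifying perichondrium (246 of 260), so regions 4 and 12 shared a study label. Omd, at 19.9 and 31.4 CPM in region 4, overlapped the region below it, and its log2 ratio of 1.19 to other spots went to 0.0843 at resolution 0.3 and 0.35 with all genes kept in the clustering.

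Dcn was highest in region 11, led by the fat genes Cfd and Adipoq and by Cxcl14, with 92 of its 108 labelled spots called progenitor by the study. With genotypes pooled it was at 775 and 922 CPM there, against 559 and 663 in the next, region 5, without overlap. In control spots alone Dcn was at 811 and 986 CPM in region 11 and 431 and 302 in region 5. In Nf1Postn spots the 2 regions overlapped, at 704 and 835 against 694 and 1012 CPM. Dcn was lowest in the Myh7-led region 2 (226 CPM) and the Col10a1-led region 7 (261 CPM). Epyc was highest in the globin-led region 8, at 14.7 CPM (5.93 to 30.4), from 7 UMIs, and overlapped the next region.

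Prelp, Fmod and Chad were highest in cartilage gene regions or, for Fmod and Chad, as high in region 5. Region 15 was led by Clec3a, Meltf, Ptgs2, Matn3 and Acan, and region 7 by the hypertrophy gene Col10a1 and by Ihh and Snorc. Prelp was at 1021 and 1117 CPM in region 15, above region 7 (642 and 622) and region 4 (612 and 540), with none of these overlapping. Fmod was at 1015 and 1271 CPM in region 15, but overlapped region 5 (908 and 1146). Chad was at 1024 and 1461 CPM in region 7 and 855 and 1219 in region 5, which overlapped, and both lay above region 15 (503 and 674). The levels of region 5 came mostly from its Nf1Postn spots: its control spots were at 465 and 273 CPM for Chad, 620 and 486 for Fmod and 405 and 253 for Prelp, against 1263 and 2143, 1201 and 1788, and 560 and 777 in Nf1Postn. With both sections pooled, Chad was lowest in region 12, at 110 CPM (97.7 and 119 by section), where Aspn and Ogn were highest. In section 1 alone Chad was lower in region 2, at 60.2 CPM.

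**Figure D2:**
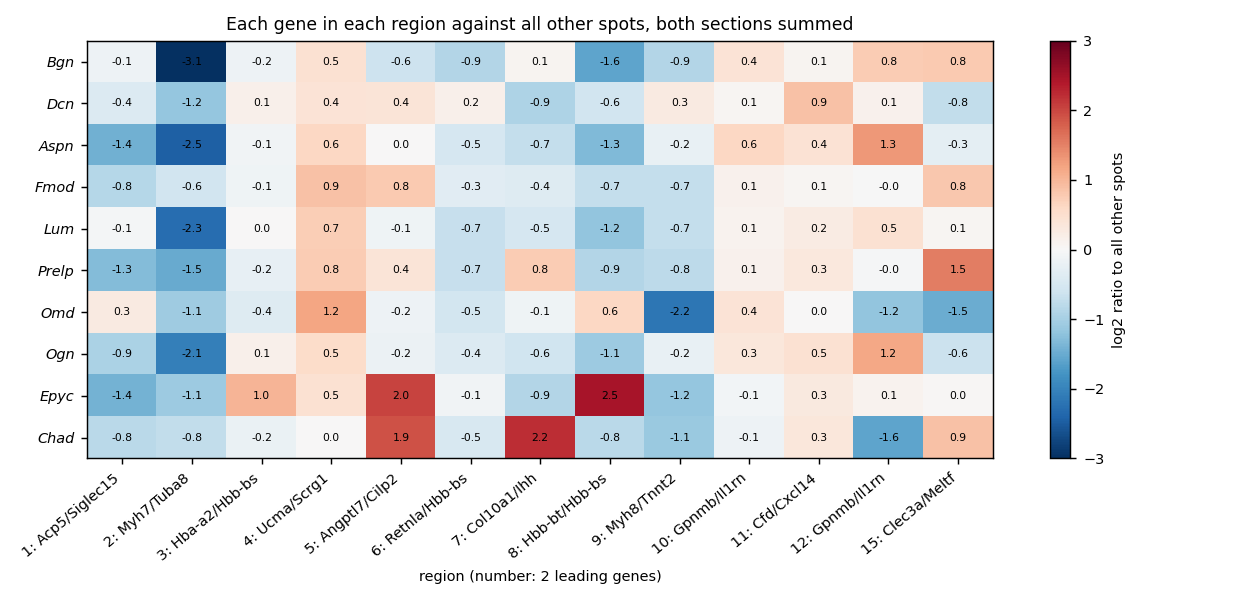
log2 ratio of each gene (rows) in each of 13 regions (columns, named by number and 2 leading genes) to all other spots, from UMIs summed over both sections, with red for higher and blue for lower. Chad is highest in the Col10a1-led region (2.21) and low in Gpnmb-led region 12 (-1.59), where Aspn and Ogn (1.16) are highest.

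The 2 cartilage gene regions differed in which proteoglycan was high, within the control callus alone. Chad was at 1024 and 1109 CPM in region 7 and at 503 and 683 in region 15, a log2 ratio of 1.03 (0.88 to 1.17) in section 1 and 0.70 (0.47 to 0.93) in section 2. Prelp ran the other way, at 642 and 623 CPM in region 7 and 1021 and 1143 in region 15, with ratios of -0.67 (-0.81 to -0.54) and -0.88 (-1.10 to -0.65). Fmod (-1.10 and -1.32) and Bgn (-0.62 and -0.70) were also lower in region 7, and Aspn, Ogn and Dcn had intervals that included 0 in both sections. The regions rested on 266 and 94 control spots in section 1 and on 130 and 30 in section 2. Col10a1 was at 2072 and 238 CPM and Acan at 2611 and 5202 CPM in regions 7 and 15 of section 1, so Chad was the higher of its 2 levels where Col10a1 was, and Prelp where Acan was.

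Few Nf1Postn spots fell in these regions, 0 of section 1 and 28 of section 2. The 27 Nf1Postn spots of region 7 held Chad at 2673 CPM (2420 to 2945), against 1109 (1021 to 1202) in 130 control spots of the same section, which is 2.41-fold higher. Prelp was at 621 and 623 CPM and Fmod at 542 and 496 CPM in the Nf1Postn and control spots, so these differed by less than counting error. Lum was 1.89-fold higher, at 667 against 353 CPM. These Nf1Postn spots were near control for Col2a1 (139435 and 142678 CPM) but low for the region's leading gene Col10a1 (91.5 against 1151 CPM), so they went against the region's name. Of 6 genes listed as tendon markers, Comp was 1.41-fold higher there (22377 against 15855 CPM) and Mkx was higher from 5 UMIs. Control spots of this cartilage gene region held more Comp than those of region 5 (3117 and 3137 CPM), so Comp was not particular to tendon here. Tnmd, Scx, Thbs4 and Cilp2 were at 0.469 to 0.678 of control with intervals that included 0. Acan was at 0.679 of control. With no Nf1Postn spot of region 7 in section 1 these values have no repeat.

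**Figure D3:**
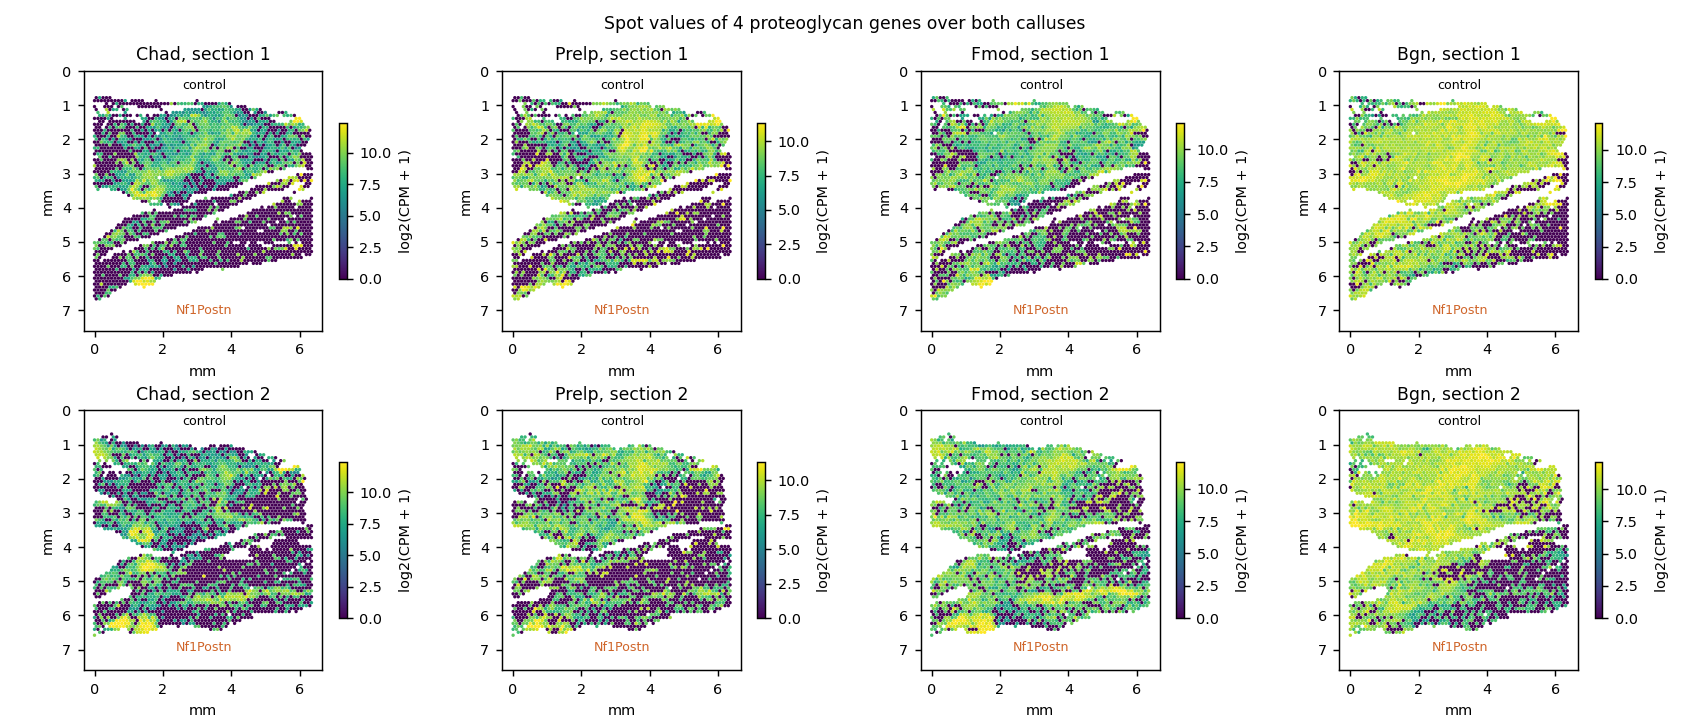
Spot maps of Chad, Prelp, Fmod and Bgn as log2(CPM + 1) (color) over position in mm, for section 1 (top) and section 2 (bottom), with the control callus above and the Nf1Postn callus below in each map. Bgn covers most of the control callus, whereas Chad is concentrated in patches, including patches at the lower margin of the Nf1Postn callus.

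Chad was the member most concentrated in space. After thinning each spot to 1000 UMIs, with 45 to 215 shallower spots of each callus section left out, Moran's I over the 6 neighboring spots was 0.27 and 0.26 in control and 0.50 and 0.58 in Nf1Postn for Chad, in sections 1 and 2. Fmod followed in Nf1Postn (0.24 and 0.41), with 0.15 and 0.14 in control, and Bgn was at 0.15 and 0.12 in control and 0.19 and 0.34 in Nf1Postn. Epyc stayed within 0.01 of 0 in all 4 callus sections. In Nf1Postn, region 5 held 3.25% and 3.49% of all UMIs but 22.6% and 20.6% of Chad UMIs in sections 1 and 2.

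Within 4 regions that each callus held with at least 20 spots in each section, the genotype ratio could be taken region by region, although tissue markers differed by genotype inside them too. The members did not move together: in the Hba-a2-led region 3 the median ratio was -0.0351, in region 5 it was 0.54, in the Myh8-led region 9 -0.69, and in region 11 -0.39, whereas the medians of all genes lay between -0.10 and 0.0381. These medians include Omd and Epyc, which had few UMIs. Epyc, at 0.99 in region 5 and -0.65 in region 9, was a middle value that helped to set the median there. No member was 2-fold apart in both sections of region 3, where 0.427% of all genes were lower and 0.551% higher, or of region 9, where 1.68% were lower and 0.346% higher.

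The widest differences were in regions 5 and 11, and were opposite. Region 5 was led by Angptl7, Cilp2, Myoc, Mepe and Prg4 and had a median of 1232.25 UMIs per spot. The study called 18 of its 19 labelled spots, all control, distal cortical bone. Osteocyte (mean log2 ratio 1.67) and erythroid (1.51) genes were its marker lists furthest above other spots. In region 5 Chad was at 465 and 273 CPM in control and at 1263 and 2143 in Nf1Postn, from 54, 55, 142 and 447 UMIs. Both Nf1Postn values were above both control values, with ratios of 1.44 (0.98 to 1.92) and 2.98 (2.57 to 3.41), 5.35-fold over both. Chad was the only member at least 2-fold higher in both sections of region 5, as 1.11% of all genes were, and none was 2-fold lower, as 0.836% were. Fmod was at 620 and 486 CPM in control and 1201 and 1788 in Nf1Postn, 2.96-fold over both. Dcn was at 431 and 302 against 694 and 1012 CPM, and Prelp at 405 and 253 against 560 and 777 CPM, also without overlap, although the section 1 interval of Prelp included 0 (-0.0982 to 1.05). Bgn moved the other way, at 1429 and 1060 CPM in control and 890 and 738 in Nf1Postn, and Lum and Ogn had intervals that included 0.

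Tendon markers were among several lists that were higher in the Nf1Postn spots of region 5. Regenerating muscle markers were at 107 and 254 CPM against 68.9 and 99.1 in control, and nerve markers at 116 and 125 against 68.9 and 89.2. Muscle and endothelial markers were also higher in both sections. Of 6 tendon genes, 4 were higher in Nf1Postn in section 1 and 6 in section 2, and none was at 0 in any callus section. Those lower in section 1 were Tnmd and Mkx. The 6 tendon genes summed to 4684 and 3870 CPM in control and 5702 and 8189 in Nf1Postn. Of this, Comp, which was also high in region 7, made up 3117 and 3137 CPM in control and 3407 and 4061 in Nf1Postn. Thbs4, a tendon matrix gene, was at 1231 and 580 CPM in control and 1690 and 2910 in Nf1Postn, and Cilp2 at 155 and 74.3 against 383 and 853. Markers of cartilage ran the other way, with 10 genes summing to 4813 and 4440 CPM in control and 1681 and 2301 in Nf1Postn, as did 5 osteocyte genes (3522 and 2572 against 2010 and 1457). Hypertrophic cartilage, osteoblast, osteoclast and macrophage lists were also lower in both sections. The part of these markers in the levels of Chad, Fmod and Dcn was not tested.

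In region 11 Chad was at 396 and 674 CPM in control and at 146 and 175 in Nf1Postn, lower in both sections with ratios of -1.44 (-1.90 to -1.01) and -1.95 (-2.33 to -1.58). It was the only member at least 2-fold lower in both, as 0.946% of all genes were, and none was 2-fold higher, as 1.58% were. Prelp was at 629 and 547 CPM against 317 and 271, and Fmod at 664 and 927 against 379 and 456, with ratios of -0.99 and -1.01 for Prelp and -0.81 and -1.02 for Fmod. Lum was lower as well (-0.53 and -0.61), while Bgn (0.0266 and -0.37) and Ogn (0.0502 and -0.50) changed sign between sections. At a finer clustering the pooled ratio in the matching region was -0.79 for Chad instead of -1.68, -0.41 for Prelp instead of -1.02 and -0.15 for Fmod instead of -0.89. Tendon markers were lower with them, summing to 4733 and 4579 CPM in control and 2118 and 2123 in Nf1Postn, with 5 and 6 of 6 genes lower. Comp made up 3502 and 2370 CPM of these control sums and 1568 and 1255 of the Nf1Postn sums. Cartilage markers were at 2507 and 2239 against 962 and 1056 CPM. Many other lists moved too. Hypertrophic cartilage, osteoblast, osteocyte, osteoclast, granulocyte, endothelial and, slightly, fibroblast lists were also lower in both sections, as were adipocyte markers (-1.48 and -0.14). Erythroid markers were higher, at 155 and 181 CPM in control and 502 and 557 in Nf1Postn, as were muscle, regenerating muscle and nerve lists. The part of these markers was not tested.

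In region 9 Prelp was at 293 and 319 CPM in control and 131 and 185 in Nf1Postn, and Ogn at 340 and 318 against 201 and 178, with no overlap. Bgn was at 970 and 1262 against 746 and 499 CPM. Fmod was lower in both sections by unequal amounts, -1.87 and -0.34. Muscle markers were higher in the Nf1Postn spots of region 9, at 69369 and 92973 against 50931 and 53649 CPM, while tendon markers (3121 and 2817 against 1112 and 1896), cartilage markers (1212 and 1456 against 611 and 578) and osteoblast markers (2609 and 1176 against 621 and 593) were lower. Comp made up 1634 and 1103 CPM of the control tendon sums and 554 and 750 of the Nf1Postn tendon sums. The part of these markers was not tested. In region 3 no member was apart by genotype in both sections with intervals that left out 0: Dcn was at 0.44 and 0.21, and Bgn at -0.16 and -0.13.

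**Figure D4:**
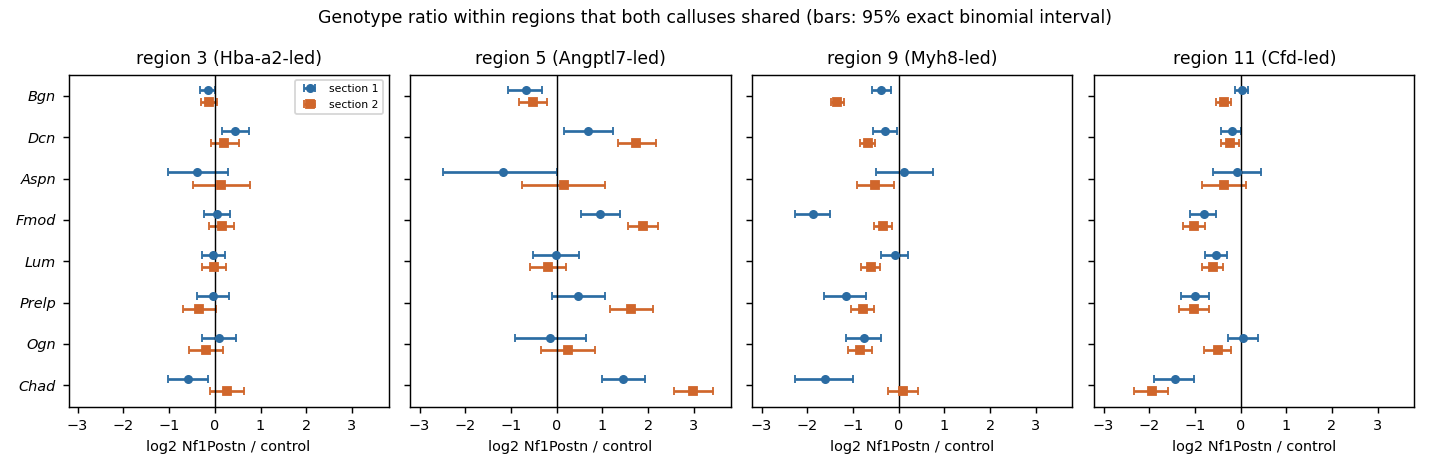
log2 ratio of Nf1Postn to control (horizontal axis) for 8 genes within 4 regions, with circles for section 1, squares for section 2 and bars for the 95% exact binomial interval. Chad lies at 1.44 and 2.98 in region 5 and at -1.44 and -1.95 in region 11. Omd and Epyc, with few UMIs, are not drawn.

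Along the fracture axis of the control callus, members separated into near and far groups. SpatialTime is the study's relative distance from the fracture plane, given for 1344 control spots of section 1, where higher values are farther. Prelp fell from 752 CPM at SpatialTime 0-4 to 526, 309 and 338 in the next bins and stood at 459 at 20-25. Fmod took the same course, from 1028 through 425 in the middle bin to 633, and Bgn went from 2386 to 1423 and 1567. Dcn rose from 385 CPM nearest the plane to 779 farthest from it, a log2 ratio of 1.02 (0.90 to 1.13), and Omd from 8.60 to 24.8. Lum was 754, 602 and 981 CPM in the nearest, middle and farthest bins.

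Aspn dipped in the middle, at 135, 64.3 and 144 CPM, and Ogn likewise at 329, 232 and 348. Chad lay between 307 and 403 CPM, and its farthest-to-nearest ratio of -0.12 (-0.28 to 0.0367) included 0. By distance from the cartilage gene regions, control spots over 900 um away were set against spots inside those regions, where Chad was high. Chad was lower in the far spots, at -1.71 in section 1 and -0.86 in section 2. Outside the regions it did not fall steadily. In section 1 it was at 284 CPM up to 300 um away, then 184, 177 and, over 900 um away, 238. In section 2 the same bins were at 245, 144, 167 and 524 CPM. The SpatialTime bins held 200 to 312 spots of 1 section, so spread between sections along SpatialTime is unknown. By the study's own spot labels, Chad was at 846 CPM in 273 cartilage spots and at 286 in 466 woven bone spots, and Prelp at 990 and 220 CPM. Aspn was at 174 CPM in 409 ossifying perichondrium spots and 51.5 in woven bone, and Dcn was highest in 146 progenitor spots (713 CPM).

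**Figure D5:**
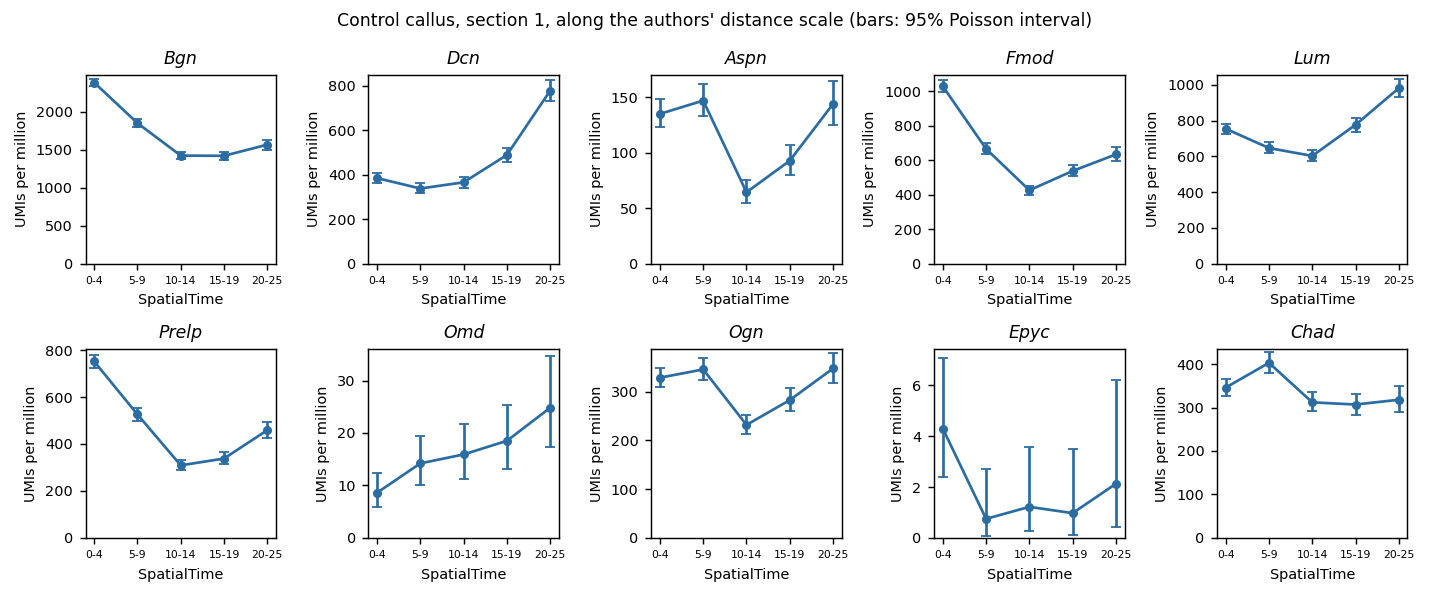
Level of each gene in CPM (vertical axis) over 5 bins of SpatialTime (horizontal axis, distance from the fracture plane) in the section 1 control callus, with bars for the 95% Poisson interval. Prelp and Fmod are lowest in the middle bin, at 309 and 425, and Dcn rises to 779.

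Depth below the tissue edge gave a further split in control. An edge spot lacked at least 1 of its 6 grid neighbors of the same callus, which includes spots beside gaps inside the tissue. With muscle and marrow gene regions left out, the pooled inner-over-edge log2 ratio of Bgn went from 0.42 to 0.16. That of Dcn went from -0.80 to -0.97. Dcn was lower at 6 or more steps inside than at the edge, at 338 against 543 CPM in section 1 and 387 against 704 in section 2. Bgn and Prelp ran the other way, with Bgn at 1842 and 1912 CPM inside against 1304 and 1485 at the edge, and Prelp at 564 and 456 against 403 and 354. Aspn (72.3 and 117 against 117 and 152) and Ogn (182 and 287 against 336 and 340) were lower inside. The innermost bin held 6 Nf1Postn spots in section 1, so the same was not read for that callus.

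Likeness over 41 sums of region, section and genotype is a description, as the points share libraries and depth. Fmod was closest to Prelp (Pearson r 0.77) and then to Chad (0.70). Chad was closest to Comp (0.75), Prelp to Ccn2 (0.91) and Fn1 (0.88), Bgn to Mmp14 and Col6a2 (0.95 each), Dcn to Eln (0.87), Aspn to S100a11 (0.90), Lum to Txndc5 (0.93) and Ogn to Fstl1 (0.98). Omd (0.72 with Nmral1) and Epyc (0.59 with Trmt44) had no close partner, and had 4 and 15 sums at 0. Ogn was at 0 in 1 sum, and with the 3 sums under 100000 UMIs left out its r with Aspn was 0.88 rather than 0.36, and its closest gene was Igf1 (0.95). In the same 38 sums Fmod was closest to Crispld2 (0.85), while Chad remained closest to Comp (0.75).

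Bgn, Lum and Aspn were alike (0.82 to 0.88 between pairs), while Chad had low r with Aspn (0.15) and Ogn (0.00609, or 0.11 in the 38 sums). The 7 pairs within a cluster had a median r of 0.34, from 0.18 to 0.77, beside 0.28 over the 38 other pairs, and in the 38 deeper sums these medians were 0.30 and 0.43. Spot by spot, at 1000 UMIs, the highest Spearman rho was 0.33 (Fmod and Chad, Nf1Postn section 2, 1443 spots), and in such sparse counts the weaker ones were not read.

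Among genes whose products bind, build or cut these proteins, most listed collagens were lower in Nf1Postn. The counts below stand beside shares over all genes of 29.9% lower and 42.3% higher in both sections, and 1.19% and 11.5% past 2-fold. Of 12 collagen genes, 11 were lower in both sections and 2, Col2a1 (-3.70 and -1.90) and Col11a1 (-1.39 and -1.70), both cartilage collagens, by at least 2-fold. Their median pooled log2 ratio was -0.81, beside 0.0805 over all genes. Col1a1, the main bone collagen, was at -0.61 and -1.16. Of 19 enzymes that build the linker and the chondroitin or dermatan sulfate chains, 14 were lower in both sections and 2 higher, and Chst11, a chondroitin 4-sulfotransferase, was at least 2-fold lower (-2.27 and -1.87). The chain starter Xylt1 was at -1.22 and -0.82.

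Among 6 keratan sulfate enzymes, 3 were lower and 1 was higher in both sections. The higher one, Chst4, was also past 2-fold (1.48 and 1.87), at only 0.467 CPM in control and 1.48 in Nf1Postn. Of 9 proteases, 4 were lower in both sections, among them the biglycan-processing Bmp1 (-0.41 and -0.81), and Adamts5 was higher (0.14 and 0.49). Of 11 receptors and ligands with a ratio, 6 were lower in both sections, with Lrp1, an endocytic receptor of decorin, the only one past 2-fold (-1.07 and -1.17), and Met was higher (0.42 and 0.51). Tgfb1, whose protein decorin and biglycan bind, was at -0.64 and -0.94.

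In the rest of the family, Podnl1 was at 51.2 and 40.3 CPM in control and 30.6 and 16.7 in Nf1Postn, and Chadl, a relative of chondroadherin, at 46.5 and 36.7 against 19.4 and 20.9, both without overlap. Tsku was at 92.9 and 89.2 against 69.9 and 46.8 CPM. Ecm2 was higher in both sections, by 0.48 (0.19 to 0.77) and by 0.0386 (-0.23 to 0.30). Kera, Nyx and Optc had at most 60 UMIs in a callus section.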

How the data were processed

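Visium probe pairs for fixed mouse tissue were sequenced by the authors. The submitters' processing notes name Space Ranger 1.3.0 and mm39, and the study's text names Partek Flow. The authors deposited raw UMI counts for each gene in each spot, handled like expected counts because 10 entries per section are not whole, together with a genotype for each spot and the spot positions. 1 entry without a gene (6.81e-05% and 3.76e-05% of UMIs) and 5 spots without a genotype were left out of comparisons. Cluster and SpatialTime labels of 1344 section 1 control spots came from the study's supporting values and served only to group spots.

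Counts were summed over spots and scaled to CPM. Spots were clustered with 20 principal components of log2(CPM + 1), 15 neighbors and Leiden clustering (leidenalg 0.10.2) at resolution 0.5. The members, other family genes and the listed collagens, enzymes, proteases, receptors and ligands were left out, and cell type marker genes were kept in. A region is named by up to 5 genes of 500 or more UMIs with the highest CPM ratio against the remaining spots. A region is a group of spots and not a cell type. Named are the 10 members, listed genes, leading genes and the 3 genes most alike per member. Cartilage gene regions were those with a cartilage or hypertrophy marker list over 2 on the log2 scale, chosen after seeing the data, as was the contrast of regions 7 and 15. The members and lists were chosen with earlier results of these data known.

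Precision follows depth: control had 13562254 and 12122419 UMIs and Nf1Postn 3462224 and 5984157. Groups under 3 UMIs were set to 3, which makes a ratio a bound. Ratios were tried on simulated Poisson counts with 200 of 16902 genes changed, where 95.9% and 95.5% of intervals held the known ratio. The intervals assume such counts, so this coverage checks the calculation. It cannot speak to spread between spots, sections or animals in the real data. Alternatives were a left-out section, TMM factors (edgeR 4.0.16), a minimum of 1000 UMIs, resolutions 0.3 and 1.0, all genes kept, a mean of log2(CPM + 1), tissue regions left out, other totals, thinning, a 1.5-fold threshold and no gene filter. Protein sequences were not used here.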

Additional observations from a re-analysis of the deposited data

Results flagged for a closer look

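In 4 comparisons of a member between 2 regions, both sections of one region moved one way and both of the other region moved the opposite way, with every counting interval leaving out 0. The share of all genes that met the same rule was not computed, so the 4 are listed as a description and not read as a result about the members. The differences between regions were not tested. Chad had a pooled log2 ratio of Nf1Postn to control of 2.42 in region 5 (1.44 and 2.98 by section) and -1.68 in region 11 (-1.44 and -1.95). Fmod was at 1.57 in region 5 (0.95 and 1.88), against -0.89 in region 11 (-0.81 and -1.02) and -0.74 in region 9 (-1.87 and -0.34). Dcn was at 1.37 in region 5 (0.69 and 1.74) and -0.57 in region 9 (-0.29 and -0.68).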

How the results depend on the processing

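Of 358 values under an alternative, 249 were classed as the same, 95 as moved and 14 as reversed. Those classed as moved went past the difference allowed (1 SD between sections, the counting interval where 1 section was used, or 1.5 times for a count). In all, 35 values changed sign. Sign changes of the median and of values whose counting interval left out 0 are given here. With muscle and marrow gene regions left out, the median genotype ratio over the members went from -0.68 to 0.000726, the ratio of Dcn to 0.36, of Aspn to 0.0675 and of Fmod to 0.0908, members lower in both sections went from 7 to 4, and Chad in inner over edge control spots went to -0.13. As a mean of log2(CPM + 1) over spots the median was -2.19. Members at least 2-fold lower went from 0 to 1 with TMM scaling and to 2 at 1.5-fold. With 1 section left out, they ranged from 0 to 2, members at least 2-fold higher from 0 to 1, the median from -0.89 to -0.52, the Dcn ratio from -0.38 to 0.16, Chad in region 9 from -1.62 to 0.0899, Bgn in region 11 from -0.37 to 0.0266, Ogn in region 11 from -0.50 to 0.0502, and Chad inner over edge from -0.34 to 0.67. In region 7 over region 15, Chad (0.95) ranged from 0.70 to 1.03 and Prelp (-0.72) from -0.88 to -0.67, and was 1.23 for Chad with all genes kept and -0.44 for Prelp at resolution 1.0. Omd in region 4 against other spots went from 1.19 to 0.0843 at resolution 0.3, where the matching region shared 0.339 of the spots of either. Resolution 0.3 put Chad in region 9 at 0.0716, and resolution 1.0 put Ogn in region 11 at 0.40. By distance from the cartilage gene regions, the nearest spots were those inside the regions. Farthest over nearest was 0.0192 for Fmod in section 2, -0.23 for Lum in section 1, and -1.71 and -0.86 for Chad. The causes were not tested. Ratios by section set the control and Nf1Postn callus of the same section against each other. With 1 mouse of each genotype no paired test was possible, and none was run. Depth limits Omd and Epyc, with 82 and 33 UMIs in Nf1Postn.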
